A study of Homo sapiens with 9 samples.

Results

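Collagen and laminin chains are encoded by families of genes, and 48 of them, 39 collagens and 9 laminins, were followed here among 17047 genes measured by exon microarray in A375P cells. A gene was taken where a transcript cluster of the array carried exactly 1 gene symbol made of COL, a number, A and a number, or of LAM, A, B or C and a digit. The 2 genes with more than 1 such cluster, COL28A1 and LAMA1, were read from the cluster with the highest mean. COL7A1, COL18A1, COL27A1, COL6A6 and LAMB3 share all their clusters with another symbol, and they were not analysed here.

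A375P is an established human melanoma line, a culture of tumour cells of melanocyte origin in which the series title places an activated form of the kinase BRAF upstream of MEK. The groups were cells given PD184352, an inhibitor of the kinase MEK, at 1 µM, cells given PLX4720, an inhibitor of RAF, at 0.4 µM, and cells given the solvent DMSO, each for 2, 6 or 24 h. All were grown in the same serum-containing medium, and all come from this single line. The values come as 9 columns, 1 for each treatment and time; the design text speaks of triplicate experiments, and no source used here says whether a column is a single array or a mean of several.

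Collagens are secreted proteins whose chains wind in threes into a triple helix. Fibrillar collagens build the tensile fibres of connective tissue, collagen IV forms the network of basement membranes, and the remaining families coat fibrils, form beaded filaments or span the cell membrane. Laminins are cross-shaped trimers of an alpha, a beta and a gamma chain that assemble the other sheet of the basement membrane, and cells hold on to both through integrins and discoidin domain receptors. In skin, melanocytes sit on such a basement membrane, and melanoma cells meet and secrete matrix of this kind as they spread.

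Short stretches upstream of 6 of the genes described below are shown first, because they belong to genes called at 24 h: those of 3 that were higher with the inhibitors, 1 that was lower, and the interval between the head-to-head genes COL4A1 and COL4A2, which were both higher. They are RefSeq sequences on GRCh38.p14, read 5′ to 3′ on the strand of the gene, and capitals mark the GC box GGGCGG on either strand and the motif CCAAT on either strand. Those of LAMB2 (chr3:49133051-49133300, minus strand), LAMB1 (chr7:108003162-108003411, minus strand), COL16A1 (chr1:31704018-31704267, minus strand) and LAMA4 (chr6:112254568-112254817, minus strand) are the 250 bases before the start of the gene. The interval of COL4A1 and COL4A2 (chr13:110307158-110307283, given on the plus strand, that of COL4A2) is 126 bases long.
LAMB2: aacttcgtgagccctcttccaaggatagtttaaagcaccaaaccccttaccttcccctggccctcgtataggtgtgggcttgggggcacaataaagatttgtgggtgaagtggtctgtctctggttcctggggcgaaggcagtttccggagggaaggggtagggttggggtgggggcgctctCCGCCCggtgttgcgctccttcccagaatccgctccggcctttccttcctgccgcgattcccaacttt
LAMB1: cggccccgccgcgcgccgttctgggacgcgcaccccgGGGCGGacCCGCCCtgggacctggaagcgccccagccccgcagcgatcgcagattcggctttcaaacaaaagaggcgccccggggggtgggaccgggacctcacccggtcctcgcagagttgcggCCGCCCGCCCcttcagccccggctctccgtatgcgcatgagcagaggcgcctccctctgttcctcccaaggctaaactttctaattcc
COL16A1: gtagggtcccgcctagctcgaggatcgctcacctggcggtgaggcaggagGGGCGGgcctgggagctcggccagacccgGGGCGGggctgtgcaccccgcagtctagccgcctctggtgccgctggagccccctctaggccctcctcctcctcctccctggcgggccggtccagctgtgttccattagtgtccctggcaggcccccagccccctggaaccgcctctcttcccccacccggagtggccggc
LAMA4: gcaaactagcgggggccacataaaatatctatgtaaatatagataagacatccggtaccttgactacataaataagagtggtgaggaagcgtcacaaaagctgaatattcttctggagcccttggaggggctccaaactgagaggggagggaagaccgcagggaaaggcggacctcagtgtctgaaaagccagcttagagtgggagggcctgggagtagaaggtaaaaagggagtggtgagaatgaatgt
COL4A1 to COL4A2: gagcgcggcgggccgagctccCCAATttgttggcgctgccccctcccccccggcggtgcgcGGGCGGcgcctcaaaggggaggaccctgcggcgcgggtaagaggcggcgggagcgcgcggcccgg

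The LAMB2 window holds 1 GC box, the LAMB1 window 4 and the COL16A1 window 2, and the LAMA4 window holds neither motif. In the interval of the paired collagen IV genes a GC box lies 65 bases and a CCAAT motif 105 bases before the start of COL4A2. The comparison was with the 13310 genes that had a promoter entry and an array cluster of 1 symbol. Over their 250 upstream bases, 63.09% held a GC box and 39.98% a CCAAT motif, so neither is rare. Of the 34 collagen and laminin genes with an entry, 21 held a GC box and 11 a CCAAT motif, and of the 6 with an entry that were called higher at 24 h, 6 and 3 did. COL4A1 and COL4A2 are both among these 6, and their windows share the 126-base interval. Its GC box and its CCAAT motif were therefore counted for both genes. The AP-1 motif TGANTCA stood in 7.14% of all windows and in 1 of the 34, that of COL10A1; the ETS motif CCGGAAG stood in 13.83% of all windows and in 1 of the 34, that of LAMA5. TATAAA was in 11.13% of all windows and in 3 of the 34, and CACGTG in 9.77% and in 0. These are letter matches in a fixed window, counted on both strands, and say nothing of whether a factor binds.

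Levels are given as log2(intensity + 1). The signal of a gene also depends on its probes, so levels are compared between columns and not between genes. A gene was taken as too dim to read where its highest column stayed below 6.86 on this scale, the 95th percentile of the means of 261 olfactory receptor genes, which serve as genes expected to be silent in these cells, or where its mean lay in the lowest 25% of all genes and it was therefore not tested. By this rule 28 genes were readable, 21 collagens and 7 laminins, and 20 were too dim, 18 collagens and 2 laminins. Of all 48, 35 passed the 25% filter and were tested, including 7 of the dim ones.

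The chains of type I and type III collagen, the main fibres of skin and the usual products of fibroblasts, were at the edge of detection. COL1A2 reached at most 6.43 and COL3A1 at most 6.64, both too dim, and COL1A1 reached 7.47 with PD184352 and 7.52 with PLX4720 at 24 h, against 7.49 with DMSO. In the collagen IV family COL4A1 and COL4A2 were readable, while COL4A3 to COL4A6 were not. The other dim collagens were COL6A5, COL21A1 and COL10A1, at no more than 5.23 in any column, and COL12A1, COL28A1, COL14A1, COL25A1, COL11A1, COL6A3, COL24A1, COL9A1 and COL15A1, at 5.78 to 6.77. Among the laminins, LAMA2, the alpha chain of muscle and nerve, reached 5.54 and LAMB4 5.83. The threshold falls between close values: COL9A1 at 6.68 and COL15A1 at 6.77 lay just below it, and COL13A1 at 7.05 and COL8A2 at 7.09 just above it. With the 99th percentile of the olfactory receptor genes in its place, 7.53, 23 genes would be too dim.

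**Figure D1:**
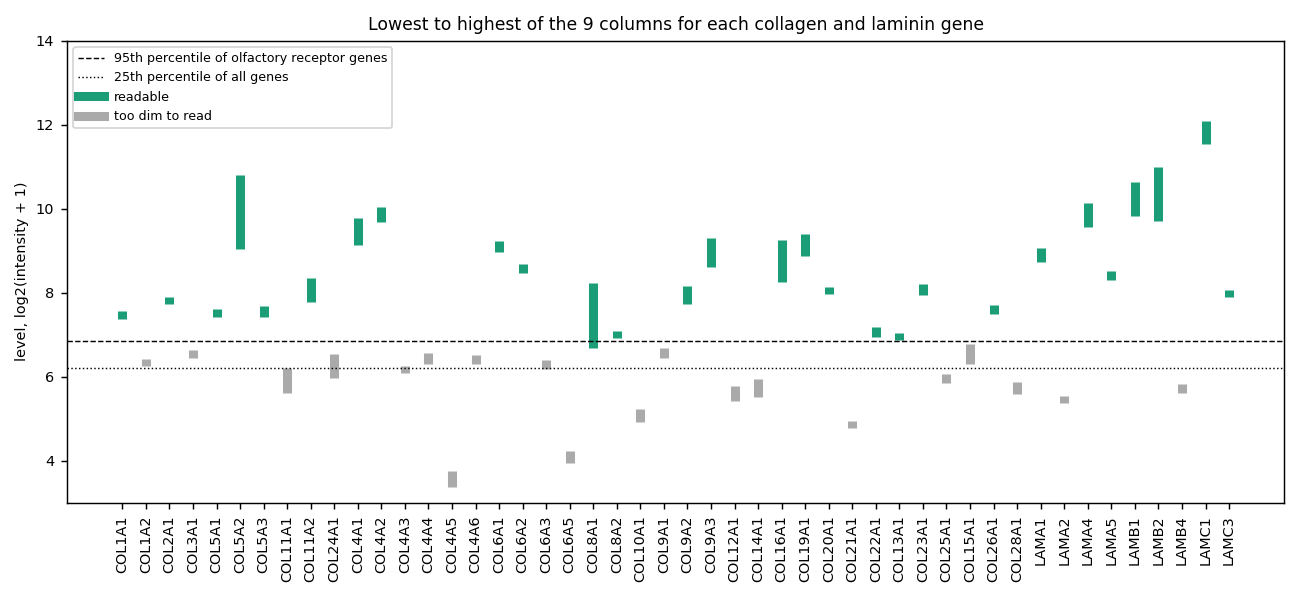
Span from the lowest to the highest of the 9 columns for each of the 48 collagen and laminin genes, as log2(intensity + 1), in the order of their families; dashed and dotted lines mark the 95th percentile of the olfactory receptor genes and the 25th percentile of all genes. The 28 readable genes (green) reach above the dashed line, and COL5A2 and COL8A1 have long spans.

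The study set out to find transcripts that depend directly on the RAF to MEK pathway. With 1 column per treatment and time, the change at a time was taken as the mean of both inhibitor columns minus the DMSO column. It was tested with limma across all 12785 genes that passed the filter, with Benjamini-Hochberg adjustment, and called at an adjusted p below 0.05. The spread behind these tests is the difference between the 2 compounds at the same time, so the p-values do not measure the spread between cultures. In RNA from a whole culture, fewer cells of a type and less RNA per cell cannot be told apart.

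At 24 h, 10 of the 35 tested collagen and laminin genes (28.6%) were called higher with the inhibitors, beside 12.5% of all genes tested, and 1 (2.86%) was called lower, beside 19.2% of all genes tested. The 10 were the fibrillar collagens COL5A2 and COL11A2, the basement membrane collagens COL4A1 and COL4A2, COL6A1, COL8A1, COL9A3 and COL16A1, and the laminin beta chains LAMB1 and LAMB2. The gene called lower was the laminin alpha chain LAMA4. At an unadjusted p below 0.05 the counts were 14 higher and 2 lower of 35, beside 16.5% and 23.7% of all genes tested. The median change at 24 h was 0.08 on the log2 scale over all 48 genes, 39 of them above 0, and -0.00 over all 17047 genes.

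The columns were also compared without a model. Both 24 h inhibitor columns lay above all 3 DMSO columns for 20 of the 35 tested genes (57.1%), beside 27.7% of all genes tested. They lay below all 3 for LAMA1, COL13A1 and COL19A1 (8.57%), beside 30.6% of all genes tested. In DMSO cells the median absolute difference between 24 h and 2 h was 0.07 over the 35, and 0.11 over all genes tested. Called genes varied in this. The span of the 3 DMSO columns was 0.42 for COL8A1, 0.34 for LAMA4, 0.26 for COL4A2 and 0.25 for COL5A2. It was 0.03 for LAMB1 and for COL9A3.

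The columns hold the signals of a melanoma line. Of 10 melanocyte lineage markers 7 had a cluster and 6 were readable, and their summed intensity was 4328 to 6748 in inhibitor columns and 4653 to 4837 in DMSO columns, with 6748 for PD184352 and 6281 for PLX4720 at 24 h, against 4653 for DMSO. Of the fibroblast markers, the textbook source of fibrillar collagen, 3 of the 7 with a cluster were readable (PDGFRB, FAP and PRRX1), DCN, LUM, POSTN and THY1 were too dim, and the sum at 24 h was 749 with PD184352 and 757 with PLX4720, against 930 with DMSO (749 to 916 in inhibitor columns and 905 to 930 in DMSO columns). These sums include the dim markers, and the readable fibroblast markers differed in direction at 24 h. PRRX1 had 7.85 with PD184352 and 8.07 with PLX4720, against 8.98 with DMSO, while PDGFRB had 7.22 and 7.13, against 6.93, and FAP had 7.46 and 7.20, against 6.80. Endothelial markers, 2 of 5 readable, summed to 444 to 589 in inhibitor columns and 491 to 529 in DMSO columns, and keratinocyte markers, 2 of 4 readable, to 484 to 517 and 485 to 534. The part of these marker differences in the 24 h calls was not tested. Median intensity was alike in the 9 columns, 98.96 to 102.35, and the 99th percentile was 1550 to 1654 in inhibitor columns and 1681 to 1754 in DMSO columns.

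**Figure D2:**
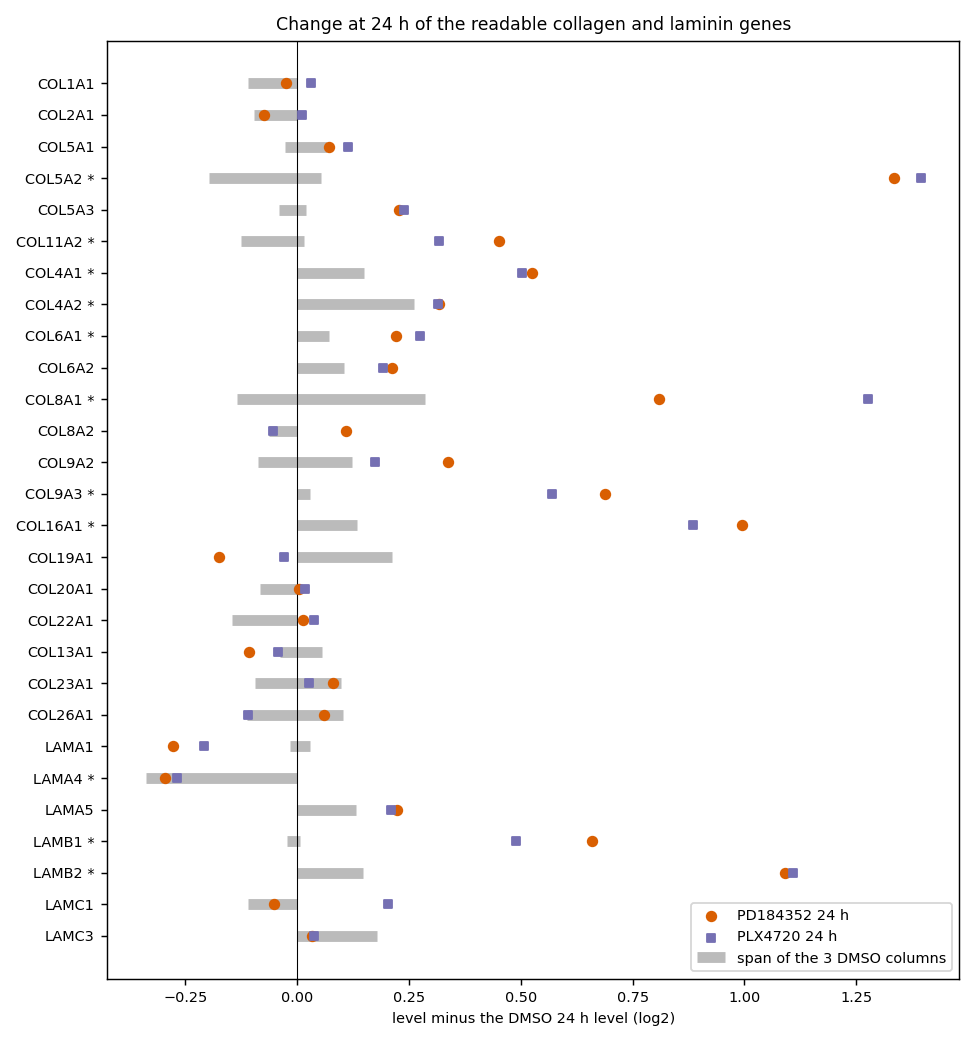
Level of each of the 28 readable genes in the PD184352 (circles) and PLX4720 (squares) columns at 24 h, minus the DMSO 24 h level, on the log2 scale; grey bars give the span of the 3 DMSO columns and an asterisk marks an adjusted p below 0.05. With both compounds COL5A2, LAMB2, COL8A1 and COL16A1 lie well to the right of the DMSO span, while both LAMA4 points lie inside it.

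Of 8 tested fibrillar collagens, 2 were called higher at 24 h and 0 lower, beside 12.5% and 19.2% of all genes tested. COL5A2, a chain of type V collagen, which sits inside type I fibrils and limits their width, had levels of 9.03, 9.66 and 10.75 with PD184352 and of 9.27, 9.69 and 10.81 with PLX4720 at 2, 6 and 24 h, against 9.22, 9.47 and 9.42 with DMSO. The 24 h inhibitor columns stood apart from every other column, and those at 6 h were slightly above all 3 DMSO columns. The change at 24 h was 1.36 (SE 0.11), a 2.57-fold higher value, with an adjusted p of 1.21e-05 in limma.

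The other type V chains were not called. COL5A1 had a change of 0.09 (adjusted p = 0.471). COL5A3 had 7.68 with PD184352 and 7.69 with PLX4720 at 24 h, against 7.45 with DMSO, a change of 0.23 that missed the threshold (adjusted p = 0.054). It passed against the 3 DMSO columns together (0.24, adjusted p = 0.00775), a control chosen after seeing the data. Against that control 15.7% of all genes tested were called higher. COL11A2, a chain of the related type XI collagen of cartilage, had 8.35 and 8.21 at 24 h with PD184352 and PLX4720, against 7.90 with DMSO, a change of 0.38 (SE 0.10, adjusted p = 0.0139). COL1A1, at 0.00, and COL2A1, the cartilage collagen, at -0.03, were not called, with adjusted p of 0.987 and 0.846. COL3A1, the neighbour of COL5A2 on chromosome 2, was too dim to read.

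Of the 4 tested collagen IV genes, 2 were called higher at 24 h, beside 12.5% of all genes tested. These were the 2 readable ones, COL4A1 and COL4A2. Their products join in the common collagen IV trimer of basement membranes. COL4A1 had levels of 9.17, 9.30 and 9.77 with PD184352 and of 9.27, 9.13 and 9.75 with PLX4720 at 2, 6 and 24 h, against 9.40, 9.32 and 9.25 with DMSO. COL4A2 had 9.69, 9.87 and 10.04 with PD184352 and 9.88, 9.72 and 10.04 with PLX4720, against 9.99, 9.91 and 9.72 with DMSO. For both genes the DMSO columns were lower at each later time, and the inhibitor columns lay below DMSO at 2 h and above it at 24 h. The change of COL4A1 at 24 h was 0.51 (SE 0.10, adjusted p = 0.00257), and that of COL4A2 was 0.32 (SE 0.11, adjusted p = 0.0449). COL4A2 lost its call with the 3 DMSO columns taken as 1 control (0.17, adjusted p = 0.192), where 15.7% of all genes tested and 11 of the 35 collagen and laminin genes were called higher. Among the 11 was COL15A1 (0.29, adjusted p = 0.0163), which was too dim to read.

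Collagen VI forms beaded filaments next to basement membranes, and its genes COL6A1 and COL6A2 neighbour each other on chromosome 21. COL6A1 had 9.18 with PD184352 and 9.24 with PLX4720 at 24 h, against 8.96 with DMSO, a change of 0.25 (SE 0.08, adjusted p = 0.0483). COL6A2 had 8.68 and 8.66 with the inhibitors, against 8.47 with DMSO, a change of 0.20 that was not called (adjusted p = 0.0963). Both differences were small, and the call of COL6A1 lay close to the threshold and was lost when any 1 of the 4 inhibitor columns of 6 and 24 h was left out.

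COL8A1, a short-chain network collagen of vessel walls and of the membrane under the corneal endothelium, lay near the dim threshold in DMSO cells. Its levels were 6.69, 6.77 and 7.77 with PD184352 and 6.72, 7.04 and 8.24 with PLX4720 at 2, 6 and 24 h, against 6.83, 7.25 and 6.96 with DMSO. The 2 compounds differed more here than for the other called genes, at 0.81 for PD184352 and 1.28 for PLX4720 over DMSO, yet both 24 h columns were above all the others. The change at 24 h was 1.04 (SE 0.17, adjusted p = 0.000996), 2.06-fold. Its partner COL8A2 had a change of 0.03 and was not called (adjusted p = 0.886).

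Fibril-associated collagens bind the surface of fibrils. Of the 7 tested, 2 were called higher at 24 h and 0 lower, beside 12.5% and 19.2% of all genes tested. COL16A1 had levels of 8.33, 8.40 and 9.25 with PD184352 and of 8.32, 8.39 and 9.14 with PLX4720 at 2, 6 and 24 h, against 8.39, 8.37 and 8.26 with DMSO. The 7 other columns lay in a narrow band below both 24 h inhibitor columns. The change at 24 h was 0.94 (SE 0.09, adjusted p = 3.11e-05). COL9A3, a chain of type IX collagen of cartilage, had 9.30 and 9.18 at 24 h with PD184352 and PLX4720, against 8.61 with DMSO, a change of 0.63 (SE 0.09, adjusted p = 0.00041). The companion chain COL9A2 had a change of 0.26 (adjusted p = 0.109), and COL9A1 was too dim to read.

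COL19A1, another member of this group and a minor collagen of basement membrane zones, was the only collagen or laminin gene called at 6 h. It had 8.96, 8.88 and 9.02 with PD184352 and 9.09, 8.96 and 9.16 with PLX4720 at 2, 6 and 24 h, against 9.20, 9.41 and 9.19 with DMSO. All 6 inhibitor columns lay below all 3 DMSO columns. At 6 h the change was -0.49 (SE 0.10, adjusted p = 0.0295), and at 24 h it was -0.10 (adjusted p = 0.522). The DMSO column of 6 h was the highest of the 3, and against the 3 together the 6 h change was -0.35 (adjusted p = 0.0515).

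The remaining collagens of this and the transmembrane group showed small differences at 24 h. COL20A1 and COL22A1, both fibril-associated, had changes of 0.01 and 0.03. Of the membrane-spanning collagens, COL23A1 had a change of 0.05 and COL13A1, which lay just above the dim threshold, one of -0.08. COL26A1 had a change of -0.03. None of these 5 was called at any time.

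Laminins were sorted by chain. Both readable beta chains were called higher at 24 h, 1 of 3 tested alpha chains was called lower, and neither gamma chain was called. Of all genes tested, 12.5% were called higher and 19.2% lower at 24 h. LAMB2, the beta chain of laminins in kidney filters and nerve-muscle junctions, had levels of 9.70, 10.17 and 10.99 with PD184352 and of 9.90, 10.24 and 11.00 with PLX4720 at 2, 6 and 24 h, against 10.01, 10.04 and 9.89 with DMSO. With both compounds its level was below DMSO at 2 h and above every DMSO column at 6 and 24 h. The change at 24 h was 1.10 (SE 0.10, adjusted p = 2.82e-05), 2.14-fold, while those at 2 h (-0.22, adjusted p = 0.686) and 6 h (0.16, adjusted p = 0.518) were not called.

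LAMB1, the beta chain of the laminins of early embryos and many adult basement membranes, had 9.82, 9.94 and 10.63 with PD184352 and 9.90, 10.05 and 10.46 with PLX4720, against 9.95, 9.98 and 9.98 with DMSO. Its 3 DMSO columns lay close together and both 24 h inhibitor columns were clear of them. The change at 24 h was 0.57 (SE 0.10, adjusted p = 0.00158).

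LAMA4, the alpha chain of vessel and fat basement membranes, had 9.66, 9.56 and 9.84 with PD184352 and 9.75, 9.59 and 9.86 with PLX4720, against 9.79, 9.87 and 10.13 with DMSO. The 24 h inhibitor values were inside the span of the DMSO columns, and it was the DMSO column of 24 h that stood highest. The change at 24 h was -0.28 (SE 0.09, adjusted p = 0.0295), but -0.08 (adjusted p = 0.549) against the 3 DMSO columns together. LAMA1, the alpha chain of the embryonic laminin, had 8.74 with PD184352 and 8.81 with PLX4720 at 24 h, against 9.02 with DMSO, a change of -0.24 (adjusted p = 0.0868). Against the 3 DMSO columns together, 23% of all genes tested were called lower and LAMA1 was the 1 laminin or collagen gene among them (-0.25, adjusted p = 0.0167). LAMA5, the alpha chain of most adult epithelial basement membranes, had a change of 0.22 (adjusted p = 0.0764).

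LAMC1, the gamma chain shared by most laminins, had 11.56, 11.55 and 11.84 with PD184352 and 11.71, 11.71 and 12.09 with PLX4720 at 2, 6 and 24 h, against 11.78, 11.82 and 11.89 with DMSO. At 24 h the compounds fell on either side of DMSO, by -0.05 and 0.20, and the change of 0.08 was not called (adjusted p = 0.728). LAMC3 had a change of 0.04 (adjusted p = 0.823). Whether the beta chains differed from the alpha and gamma chains in their change was not tested.

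**Figure D3:**
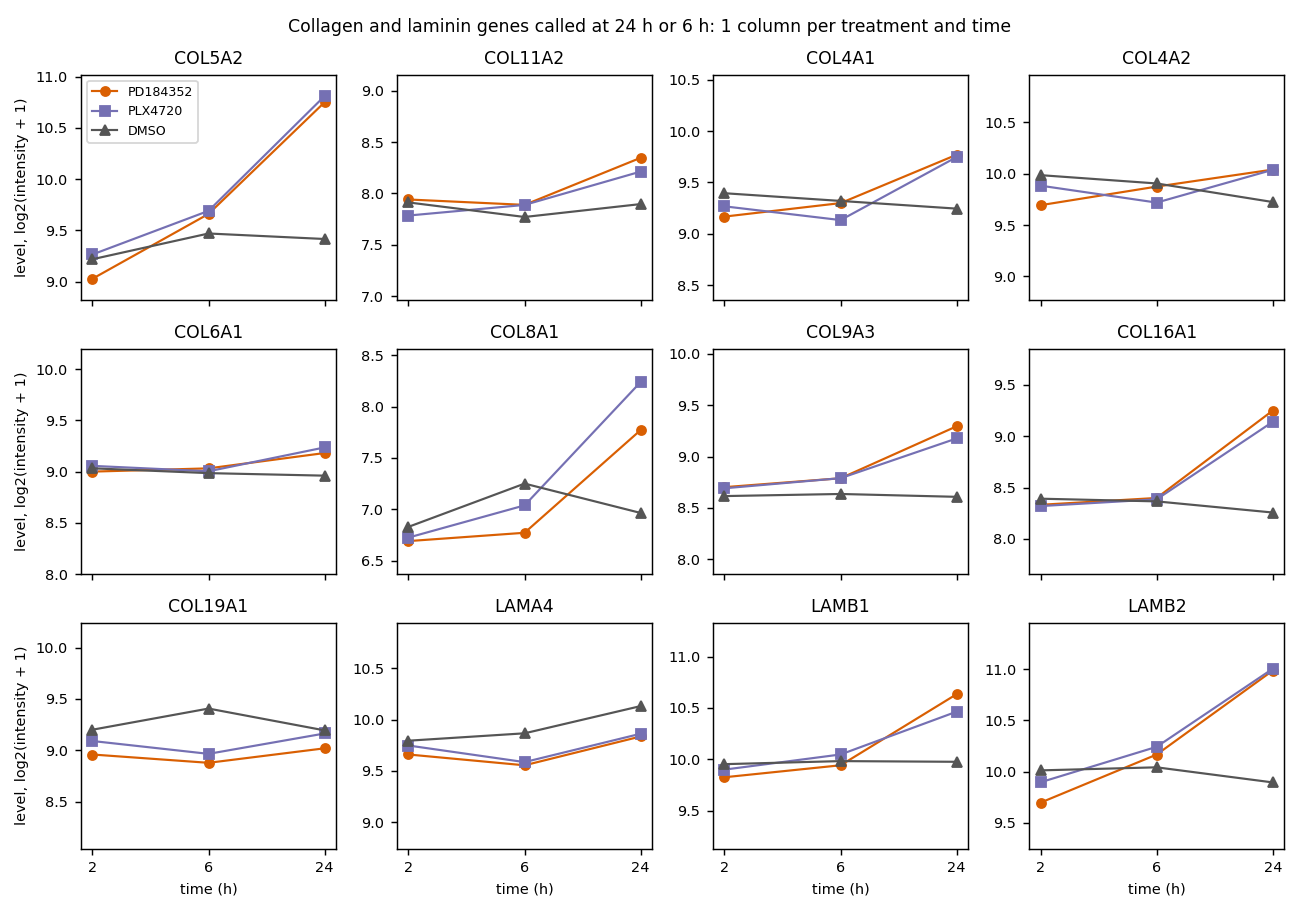
Level, log2(intensity + 1), of the 12 collagen and laminin genes called at 24 h or 6 h, at 2, 6 and 24 h with PD184352 (circles), PLX4720 (squares) and DMSO (triangles), 1 column per point; all panels span the same range on the log2 scale. The inhibitor lines of COL5A2, LAMB2, COL8A1 and COL16A1 separate from DMSO between 6 and 24 h, while those of LAMA4 and COL19A1 run below it.

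The earlier times showed little. At 6 h, 0 collagen and laminin genes were called higher in limma, beside 0.548% of all genes tested, and COL19A1 alone was called lower (2.86%), beside 2.74% of all genes tested. At an unadjusted p below 0.05 the counts at 6 h were 0 higher and 2 lower, beside 3.28% and 12.2% of all genes tested. Among the tested genes, the highest 6 h changes with 1 sign for both compounds were those of COL5A2 (0.21), the dim COL9A1 (0.17) and LAMB2 (0.16), and the lowest after COL19A1 were those of COL8A1 (-0.35, adjusted p = 0.373) and LAMA4 (-0.30, adjusted p = 0.108).

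At 2 h, 0 were called in either direction in limma, beside 0.0156% higher and 0.0704% lower of all genes tested, and 0 had an unadjusted p below 0.05, beside 2.08% higher and 5.33% lower. Among the tested genes, the largest differences at 2 h with 1 sign for both compounds were -0.22 for LAMB2, -0.20 for COL4A2 and -0.18 for COL4A1, and 0.11 for COL22A1, 0.09 for the dim COL15A1 and 0.09 for COL2A1. Averaged over the 3 times, in a fit with time as a block, limma called 0 higher, beside 0% of all genes tested, and 0 lower, beside 0.133% of all genes tested. At an unadjusted p below 0.05, 1 was higher and 2 were lower, beside 4.34% and 15.9% of all genes tested. In this fit a change that differs between times adds to the spread, so a change seen mainly at 24 h is hard to call. LAMB2 averaged 0.35 (SE 0.22) over the 3 times, while its change at 24 h had an SE of 0.10.

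A limma F-test asked whether the change with the inhibitors differed between times. It called 7 of the 35 genes (20%), beside 14.9% of all genes tested. They were COL5A2, LAMB2, COL8A1, COL16A1, COL4A1, LAMB1 and COL9A3, and in each the change was larger at 24 h than at 2 h, by 0.55 for COL9A3 up to 1.44 for COL5A2.

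Both compounds were also compared directly over the 3 times. limma called 0 collagen and laminin genes different between PD184352 and PLX4720, beside 0% of all genes tested, and at an unadjusted p below 0.05 only LAMC1 was lower with PD184352, by -0.19 (95% interval -0.36 to -0.02). The 95% intervals of all 35 tested genes, for the mean difference over the 3 times, lay between -0.93 and 0.56. Mean differences of more than 2-fold between the compounds were outside them for each gene, while smaller ones were not. The widest interval was that of COL8A1, from -0.93 to 0.42. The spread in this fit, with treatment and time, also holds changes with the inhibitors that differ between times. A difference between the compounds at a single time was not tested.

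Of the 13 collagen and laminin genes left out as dim, 5 were called higher at 24 h when no filter was applied, beside 3.97% of all 4262 genes left out: COL11A1 (0.53), COL24A1 (0.43), COL14A1 (0.34), COL4A5 (0.31) and COL12A1 (0.30). COL11A1, a fibrillar collagen chain, had 6.17 with PD184352 and 6.21 with PLX4720 at 24 h, against 5.66 with DMSO, all below the 95th percentile of the olfactory receptor genes. Differences at such levels are given as values only.

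Partner genes were taken from 4 lists of what collagens and laminins need or meet. The share of all genes tested that was called at 24 h, 12.5% higher and 19.2% lower, is the measure for each 24 h count below. Of the enzymes and chaperones of collagen folding, 1 was called higher and 1 lower of 13 tested at 24 h, near those shares, with a median change of 0.07. COLGALT1, which adds galactose to hydroxylysine, had 9.65 with PD184352 and 9.85 with PLX4720 at 24 h, against 10.48 with DMSO, a change of -0.73 (SE 0.11, adjusted p = 0.000531). P4HA2, a catalytic subunit of prolyl 4-hydroxylase, changed by 0.32 (adjusted p = 0.0185), and P4HB, its other subunit, had a change of 0.24 that was not called (adjusted p = 0.0938). MIA3, which helps load collagen for export, had a change of 0.33 at a level too dim to read (adjusted p = 0.19).

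Of 9 tested genes of trimming and crosslinking, 2 were called higher and 2 lower at 24 h, beside 12.5% and 19.2% of all genes tested. LOXL4, a lysyl oxidase that crosslinks matrix fibres, had 9.83 with PD184352 and 10.15 with PLX4720, against 11.55 with DMSO, a change of -1.56 (SE 0.14, adjusted p = 2.51e-05). BMP1, a protease that trims the ends of fibrillar procollagens, changed by 0.53 (adjusted p = 0.00274), and its enhancer PCOLCE by 0.27 (adjusted p = 0.0344). ADAMTS3, which trims the amino end of procollagen, changed by -0.35 (adjusted p = 0.0265), near the dim threshold.

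Other glycoproteins of basement membrane and matrix gave 4 higher and 1 lower of 10 tested, beside 12.5% and 19.2% of all genes tested, with a median change of 0.22. NTN4, a netrin that binds laminin networks, had 8.30 with PD184352 and 8.54 with PLX4720 at 24 h, against 6.80 with DMSO, a change of 1.62 (adjusted p = 1.52e-05). FBN1, the fibrillin of microfibrils, changed by 0.49 (adjusted p = 0.0132) and AGRN, which links laminin to cell surfaces, by 0.34 (adjusted p = 0.0163). TNC, a glycoprotein of wounds and tumour stroma, went the other way, with 10.36 and 10.51 with PD184352 and PLX4720, against 11.31 with DMSO, a change of -0.87 (adjusted p = 0.000107).

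Of 12 tested receptor genes, 2 were called higher and 4 lower at 24 h, beside 12.5% and 19.2% of all genes tested. ITGA2, the alpha chain of a collagen-binding integrin, had 10.91 with PD184352 and 10.77 with PLX4720, against 8.33 with DMSO, a change of 2.51 (adjusted p = 1.19e-06), and the collagen-binding kinase DDR1 changed by 1.07 (adjusted p = 0.000241). ITGA10, another collagen-binding chain, changed by -0.68 (adjusted p = 0.00024), and ITGA6, the alpha chain of laminin-binding integrins, by -0.64 (adjusted p = 0.000432). ITGA6 was also the 1 partner gene called at 6 h, at -0.41 (adjusted p = 0.0379), where 2.74% of all genes tested were called lower. At 2 h, 0 of the 4 lists had a call, beside 0.0156% higher and 0.0704% lower of all genes tested.

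**Figure D4:**
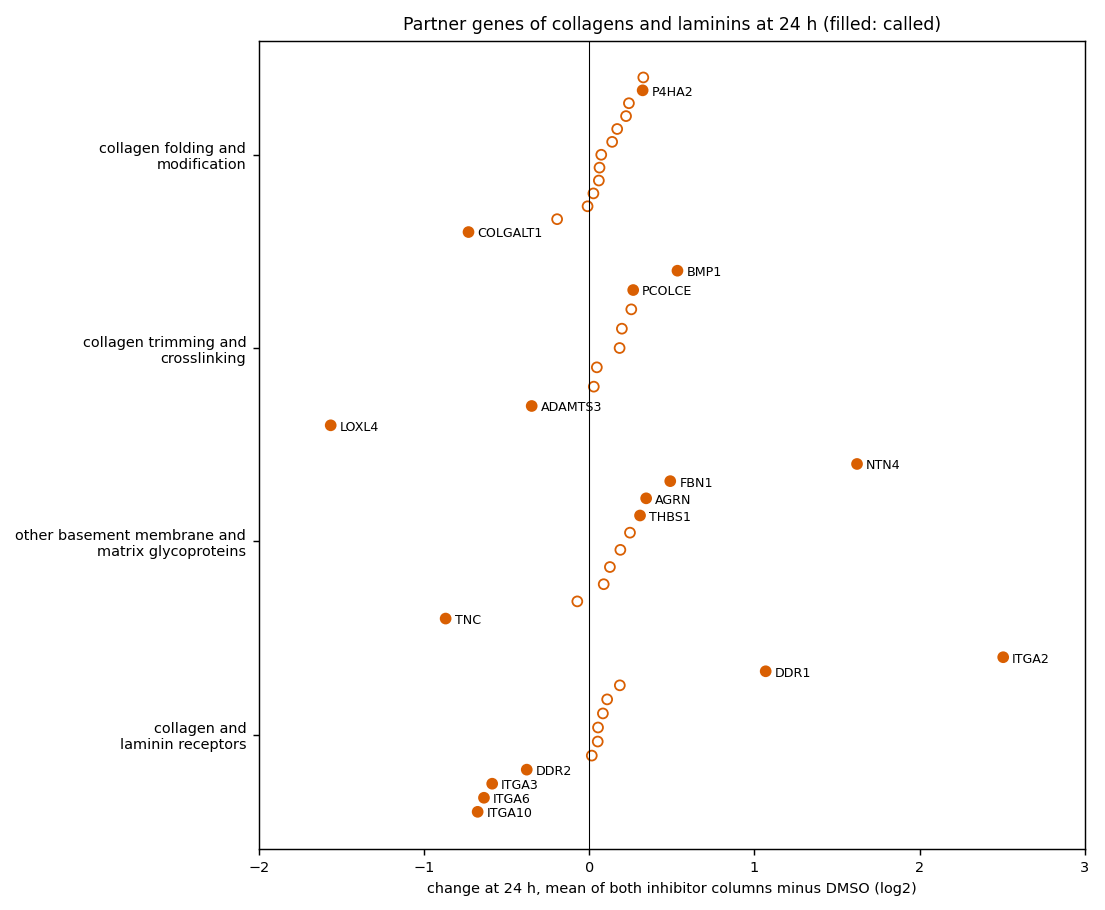
Change at 24 h, mean of both inhibitor columns minus DMSO on the log2 scale, of the tested partner genes in 4 lists; filled points are called at an adjusted p below 0.05 and named. ITGA2, NTN4 and DDR1 lie far to the right, LOXL4 and TNC to the left, and most of the folding enzymes near 0.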

How the data were processed

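The 9 columns are gene-level intensity values on a linear scale as deposited by the authors; per the submitters' processing notes RMA, limma and R 2.8.0 were used, and the genome build and the number of arrays behind a column are not given in the sources used here. Of 35446 transcript clusters, 19380 carry 1 gene symbol in the platform annotation, 3339 several and 12727 none. Values were taken to log2(value + 1), 1 cluster per gene was kept (highest mean), and genes with means in the lowest 25% (below 6.21) were left out of tests. limma 3.58.1 in R 4.3.3 was fitted over all 12785 remaining genes with a mean for each state (DMSO or either inhibitor) at each time (3 residual degrees of freedom), or with treatment and time (4), with Benjamini-Hochberg adjustment at 0.05. The procedure was tested on simulated data, with independent noise of the same spread for every gene and column. That setting says nothing of the spread between cultures, which this design does not measure. Alternatives were the filter, the pseudocount (16), quantile normalization, the mean of all clusters of a gene, array weights, a variance trend and leaving out each column. The 3 DMSO columns as 1 control (5 residual degrees of freedom) was chosen after seeing the data. The precision of array values is limited by the number of columns.

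The members and lists were chosen with earlier results of these data known. Genes named are those called in any test, the 3 that changed most in each direction at 2, 6 and 24 h where PD184352 and PLX4720 share a sign, the brightest of each family, and up to 4 of each partner list by size of the 24 h change. Others named were chosen after their values were seen. Promoter windows are from RefSeq, GRCh38.p14.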

Additional observations from a re-analysis of the deposited data

Results flagged for a closer look

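For 7 of the 35 tested genes (20%) the change with the inhibitors differed between times in the limma F-test, beside 14.9% of all genes tested. The difference, the change at 24 h minus the change at 2 h on the log2 scale, was 1.44 for COL5A2 (adjusted p = 0.000485), 1.31 for LAMB2 (adjusted p = 0.000696) and 1.16 for COL8A1 (adjusted p = 0.00642). It was 1.00 for COL16A1 (adjusted p = 0.000926), 0.69 for COL4A1 (adjusted p = 0.0122), 0.66 for LAMB1 (adjusted p = 0.019) and 0.55 for COL9A3 (adjusted p = 0.0246). All 7 rest on 1 DMSO column per time. LAMB1 missed the threshold without the PD184352 column of 2 h (0.63, adjusted p = 0.0511), and COL9A3 without the PLX4720 column of 2 h (0.54, adjusted p = 0.0509) or the PD184352 column of 24 h (0.49, adjusted p = 0.0664).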

How the results depend on the processing

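The 10 genes called higher at 24 h became 8 to 13 over the alternatives run. Of all genes tested, 12.5% were called higher and 19.2% lower at 24 h in the main fit. With the 3 DMSO columns as 1 control these shares were 15.7% and 23%. For the other alternatives the share over all genes tested is not given here. A shift of a count below therefore cannot be told from a shift over all genes. With no filter the 13 included 5 genes too dim to read, COL11A1, COL24A1, COL14A1, COL4A5 and COL12A1. LAMB2, COL5A2, COL16A1, COL9A3, LAMB1 and COL4A1 kept their call in each that has a 24 h contrast, and COL8A1 in each that also tested it. COL6A1 lost its call with no filter (adjusted p = 0.067), the mean of all clusters (adjusted p = 0.0512), the variance trend (adjusted p = 0.0645), or any inhibitor column of 6 or 24 h left out (adjusted p 0.0744 to 0.192). COL4A2 lost its call with no filter, the variance trend, the 3 DMSO columns as 1 control, or either 24 h inhibitor column left out, and COL11A2 without PD184352 at 24 h (adjusted p = 0.0569). The count of genes lower at 24 h was 0 with quantile normalization (LAMA4 -0.15, adjusted p = 0.164) and 0 to 1 over columns left out, 0 without either 24 h inhibitor column. The count lower at 6 h was 0 with no filter, with quantile normalization (COL19A1 -0.38, adjusted p = 0.0978) and with the 3 DMSO columns as 1 control, and 0 to 1 over columns left out, 0 without PD184352 (-0.44, adjusted p = 0.144) or PLX4720 (-0.53, adjusted p = 0.0782) at 6 h. Over the 3 times the count lower was 0 to 1, with LAMA4 called without the DMSO column of 2 h (-0.29, adjusted p = 0.05, just under the threshold). The count whose change differed between times was 6 to 8. Of 175 values of named genes at 24 h, 158 kept their call, 17 lost it and 0 changed direction. Part of this was fixed in advance. Leaving out the DMSO column of 2 h or 6 h cannot alter a 24 h result in this fit, and it returned the main values. The filter, the variance trend, the mean of all clusters and leaving out an inhibitor column of 2 h or 6 h left each change as it was. Its direction could not differ there. Array weights were attempted but not estimated for the fit with treatment and time, and leaving out a DMSO column removes the contrast of that time. No paired analysis was possible because the columns carry no replicate numbers, apart from time as a block in the fit over the 3 times.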
